A study of Cuscuta campestris with 9 samples.

Results

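The loci described here are 72 microRNA primary transcripts of the parasitic plant Cuscuta campestris (dodder) whose names end in a number and a letter, such as ccm-MIR12465b. They were taken from the 126 loci that the deposited table lists as primary transcripts of microRNAs induced at the host interface, and these in turn belong to 716 listed loci (2535 intervals) of microRNA, spliceosomal snRNA and tRNA genes. Of 76 lettered names, ccm-MIR12463b, ccm-IIM-12a, ccm-MIR12490a and ccm-MIR12490b were set aside as the rule requires, and 50 microRNA loci carry no letter. A family is a name without its last letter, so ccm-MIR12465a, b and c form the family ccm-MIR12465. The 72 loci fall into 37 families, 32 loci with the prefix ccm-IIM and 40 with the prefix ccm-MIR.

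All 9 libraries came from wild-type plants of the strain "Dotti". Shoot tips 4 to 6 cm long, cut from plants grown on beet, were made to form haustoria, the organs that penetrate a host, without any host, by 4 days of far-red light and pressure on 3% agar. Each of 3 RNA samples from the dissected haustoria was split into an untreated portion, a portion treated with decapping enzyme (Dcp) and a portion treated with the pyrophosphohydrolase RppH, so each group held 3 libraries that shared tissue, genotype and RNA. Separate plants or cultures behind the RNA samples are not mentioned in the labels, so each p-value refers to the spread among these libraries, which may be technical. The table lists no messenger RNA, so the tissue could not be checked against marker genes, and with no host-attached or stem sample the induction named in the category was not examined.

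Plant microRNAs are cut by a Dicer-like enzyme from a hairpin within a longer primary transcript, and several loci can encode the same or nearly the same mature microRNA, which is what a lettered family collects. Transcripts of RNA polymerase II receive a cap at their 5′ end, whereas those of RNA polymerase III keep a triphosphate. The splint ligation used for these libraries joins an adapter only to a 5′ monophosphate. Dcp removes caps, and RppH trims both caps and triphosphates, so the submitters' protocol takes enrichment by both enzymes as a sign of a probable cap and enrichment by RppH alone as a sign of a probable triphosphate.

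Each read was a full-length RNA, so a count stands for a read of the listed interval and was not divided by its length. Whether the library preparation favoured some lengths or sequences was not tested. The deposited TPM was the count scaled to a library total of 24974484 to 46034864, and 1 count was worth 0.0217 to 0.0400 TPM. The 72 loci held few of these counts. Untreated libraries 1, 2 and 3 held 21, 6 and 5 of them, Dcp libraries 116, 125 and 39, and RppH libraries 431, 290 and 812. No molecular identifiers are mentioned, so a count may be an amplified copy and the intervals cover counting error only. A group without counts was given a floor of 3 counts, pooled over its libraries (0.0264 TPM untreated, 0.0314 TPM for Dcp), and such a fold is a lower bound. A group with 1 to 3 counts kept its own count, so a ratio over it can exceed such a bound and cannot be ranked against it.

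Summed over the 72 loci, few primary transcripts were captured from untreated RNA, more after Dcp and most after RppH. The portions came from the same RNA samples, so these sums measure what the ligation captured and not how much transcript was present. Their sum was 0.508, 0.130 and 0.189 TPM in untreated RNA samples 1, 2 and 3, against 4.52, 3.06 and 1.34 TPM after Dcp and 15.7, 11.6 and 24.3 TPM after RppH. The 3 groups did not overlap. Mean sums with their SD over 3 libraries were 0.276 ± 0.203 TPM for untreated RNA, 2.98 ± 1.59 TPM for Dcp and 17.2 ± 6.50 TPM for RppH. RppH stood 62.4 times above untreated RNA, Dcp stood 10.8 times above it, and RppH stood 5.79 times above Dcp. The exact two-sided permutation p of each comparison was 0.1, and this number of libraries cannot give a smaller one. The test permuted libraries freely and did not keep the pairing by RNA sample, which would leave fewer permutations. RppH exceeded Dcp by 3.47 and 3.79 times in RNA samples 1 and 2 and by 18.1 times in RNA sample 3, whose Dcp library had the lowest sum and whose RppH library had the highest. Without RNA sample 1 the ratio of RppH to untreated was 112.5, and without RNA sample 3 it was 42.8, while that of RppH to Dcp was 3.60 without RNA sample 3.

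The 2 loci ccm-MIR12497a and ccm-MIR12497b held 22 of the 32 untreated counts (68.75%). Without them, a step added after the values were seen, the ratios to untreated RNA were 191.6 for RppH and 31.1 for Dcp. Of the 72 loci, 65 had 0 untreated counts, 69 had counts after RppH and 38 had counts after Dcp. Counts appeared only in RppH libraries for 29 loci, only in Dcp libraries for 2 and only in an untreated library for 1. Detection was patchy, with 27 loci seen in all 3 RppH libraries, 22 in a single RppH library and 6 in all 3 Dcp libraries.

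Abundance was concentrated in few loci. The 10 most abundant after RppH held 66.7% of the RppH counts and 63.9% of the Dcp counts of all 72, and 1 untreated count. In descending order of mean RppH level these were ccm-MIR12465b, ccm-MIR12497d, ccm-MIR12473a, ccm-MIR12465c, ccm-IIM-12b, ccm-MIR12487b, ccm-MIR12494b, ccm-MIR12478a, ccm-IIM-63b and ccm-IIM-73a. Their means ran from 2.10 ± 1.29 TPM for the first to 0.505 ± 0.226 TPM for the last (SD, n = 3), and neighbours in this order differed by less than the larger of their SDs. The median over the 72 loci was 0.0698 TPM after RppH. The 50 loci without a letter had a median of 0.162 TPM and a highest value of 12.05 TPM. Mature microRNAs were not analysed here, and all levels are those of primary transcripts captured by the ligation.

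**Figure D1:**
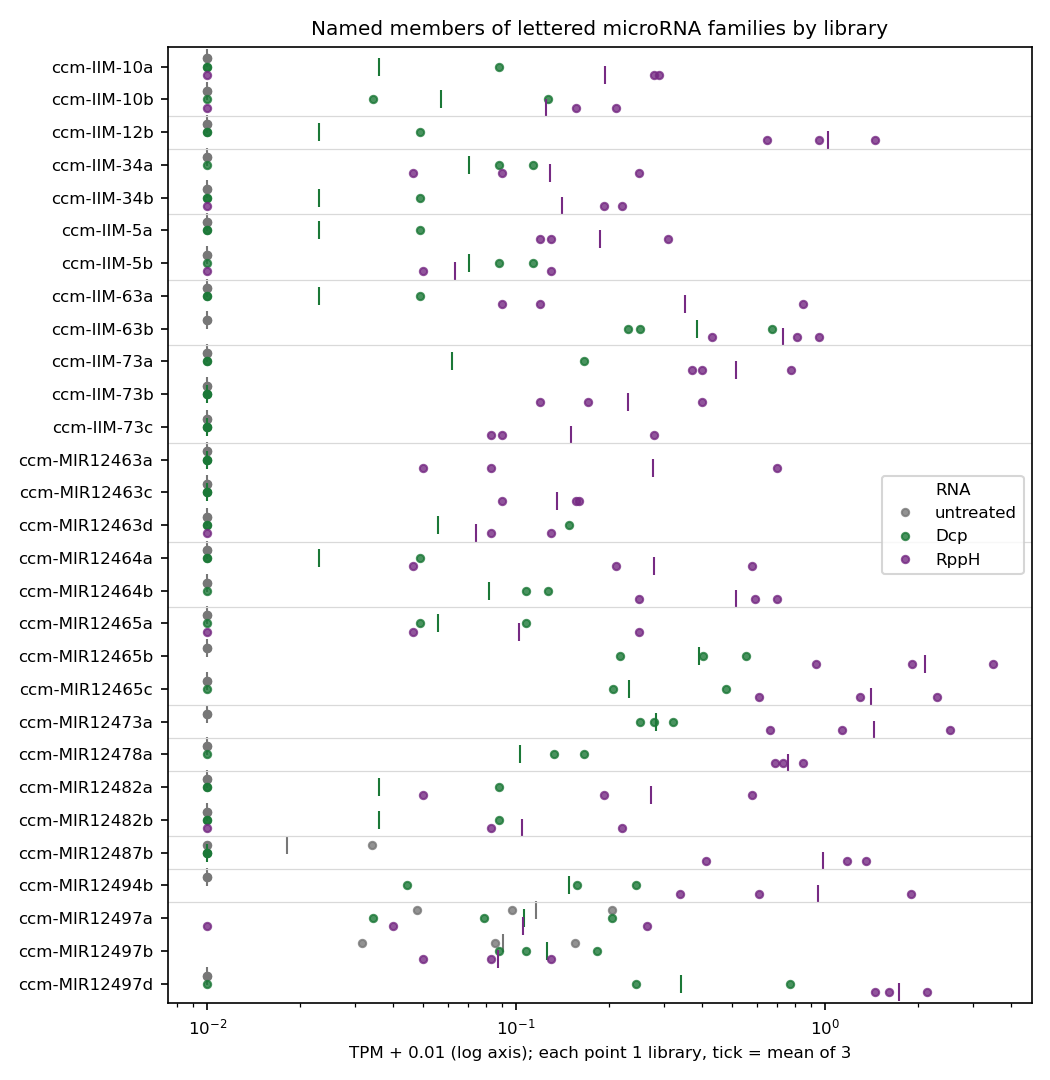
TPM + 0.01 on a log axis for the 29 loci named by rule, with 1 point per library, a tick at the mean of 3 libraries and grey, green and purple for untreated, Dcp and RppH. Most loci sit at 0.01 (0 counts) in untreated RNA and reach their highest values after RppH, while ccm-MIR12497a and ccm-MIR12497b overlap in all 3 groups.

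The family ccm-MIR12465 held the most abundant of the 72 loci, and its 3 loci differed widely in level although their lengths were within 4 nt of each other. ccm-MIR12465b (scaffold 79, 376886 to 377030, plus strand, 145 nt) had 14, 16 and 6 counts in the Dcp libraries of RNA samples 1, 2 and 3, 52, 23 and 116 in the RppH libraries and 0 in each untreated library. ccm-MIR12465c (scaffold 99, 713750 to 713894, minus strand, 145 nt) also had 0 untreated counts, with 12, 8 and 0 after Dcp and 63, 15 and 43 after RppH. ccm-MIR12465a (scaffold 41, 1115128 to 1115268, minus strand, 141 nt) had 0 untreated counts, 1, 4 and 0 after Dcp and 1, 0 and 8 after RppH. For b the 3 groups did not overlap, for c only the Dcp library of RNA sample 3, at 0, met the untreated libraries, and for a the Dcp and RppH groups overlapped. Mean RppH levels were 2.10 ± 1.29 TPM for b, 1.40 ± 0.852 TPM for c and 0.0921 ± 0.129 TPM for a (SD, n = 3), so b and c did not differ beyond their spread and c was the higher of the pair in RNA sample 1.

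Against untreated RNA, ccm-MIR12465b was at least 84.4-fold higher after RppH (edgeR adjusted p = 3.87e-07) and at least 14.3-fold higher after Dcp (edgeR adjusted p = 0.00105). For ccm-MIR12465c the bounds were 53.5-fold (edgeR adjusted p = 2.98e-06) and 7.94-fold (edgeR adjusted p = 0.00701). RppH exceeded Dcp by a ratio of pooled rates of 5.91 for b (95% counting interval 4.12 to 8.68, edgeR adjusted p = 0.0224) and of 6.73 for c (4.17 to 11.4, edgeR adjusted p = 0.0218). Both differences between the enzymes were lost with the RNA sample as a block (edgeR adjusted p = 0.143 and 0.101). ccm-MIR12465a passed after RppH (at least 3.98-fold, edgeR adjusted p = 0.0195, or 0.174 with the block) and did not pass after Dcp (edgeR adjusted p = 0.188).

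The family ccm-MIR12497 was the largest, with 6 loci, and held both the second most abundant of the 72 loci and the pair with the most untreated counts. Of these loci, 5 lie on the plus strand of scaffold 13b and ccm-MIR12497f lies on scaffold 111 (801267 to 801418, plus strand). ccm-MIR12497d (582372 to 582537, 166 nt) had 0 untreated counts, 6, 31 and 0 after Dcp and 44, 36 and 71 after RppH. ccm-MIR12497a (575639 to 575821, 183 nt) had 8, 4 and 1 untreated counts, 5, 1 and 2 after Dcp and 7, 0 and 1 after RppH. ccm-MIR12497b (575715 to 575890, 176 nt) had 6, 1 and 2 untreated counts, 2, 4 and 5 after Dcp and 2, 1 and 4 after RppH. Locus d stood clear of its untreated libraries after RppH, while a and b overlapped across all 3 groups. Intervals a and b share 107 bases on 1 strand, and the sources used here do not state to which of them a read that matched both was given. The other loci had at most 7 counts over all libraries, namely 4 after Dcp and 3 after RppH for c, 2 after RppH for e and 5 after RppH for f.

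After RppH ccm-MIR12497d was at least 66.75-fold higher than in untreated RNA (edgeR adjusted p = 1.26e-06) and after Dcp at least 14.7-fold higher (edgeR adjusted p = 0.00180). Its Dcp call was lost without RNA sample 1, without RNA sample 2 or without the Dcp library of RNA sample 2, which held 31 of its 37 Dcp counts. RppH exceeded Dcp by a ratio of 4.54 (95% counting interval 3.15 to 6.70, edgeR adjusted p = 0.0303, or 0.0916 with the block). For ccm-MIR12497a the ratio of RppH to untreated rates was 0.816 (95% counting interval 0.293 to 2.12; edgeR log2 fold change -0.19, SE 1.28, adjusted p = 0.886). For ccm-MIR12497b it was 1.03 (0.327 to 3.11; edgeR log2 fold change -0.03, SE 1.38, adjusted p = 0.984). These were the only 2 of 33 tested loci not called higher after RppH. Their size and call depend on the scaling, since TMM gave -3.32 (edgeR adjusted p = 0.0216) and -3.06 (edgeR adjusted p = 0.0479) on the log2 scale, both called lower. The ratios of Dcp to untreated rates were 0.733 for a (0.263 to 1.91) and 1.46 for b (0.549 to 3.98), and neither passed (edgeR adjusted p = 1.00 and 0.908).

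In the family ccm-IIM-63, both loci rose after RppH, and b alone was called after Dcp. ccm-IIM-63b (scaffold 30, 3544487 to 3544643, plus strand, 157 nt) had 0 untreated counts, 17, 9 and 7 after Dcp and 26, 20 and 14 after RppH. ccm-IIM-63a (scaffold 161a, 621311 to 621460, minus strand, 150 nt) had 0 untreated counts, 1, 0 and 0 after Dcp and 3, 2 and 28 after RppH. Values of b overlapped between Dcp and RppH in TPM, and 28 of the 33 RppH counts of a came from RNA sample 3, where a exceeded b. ccm-IIM-63b was at least 26.5-fold higher after RppH (edgeR adjusted p = 2.76e-05) and at least 13.1-fold higher after Dcp (edgeR adjusted p = 0.00142). Its ratio of RppH to Dcp was 2.02 (95% counting interval 1.30 to 3.20) and did not pass (edgeR log2 fold change 0.95, SE 0.963, adjusted p = 0.371). ccm-IIM-63a was at least 14.6-fold higher after RppH (edgeR adjusted p = 0.000685), a call lost without RNA sample 3 or its RppH library. Its ratio of RppH to Dcp was 36.7 (6.15 to 1494), with an edgeR adjusted p of 0.0118, or 0.154 with the block.

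All 3 loci of ccm-IIM-73 had 0 untreated counts and were called higher after RppH. ccm-IIM-73a (scaffold 203, 239445 to 239602, plus strand, 158 nt) had 4, 0 and 0 counts after Dcp and 21, 9 and 13 after RppH. ccm-IIM-73b (scaffold 502, 43496 to 43661, plus strand, 166 nt) had 0 counts after Dcp and 3, 4 and 13 after RppH. ccm-IIM-73c (scaffold 502, 67645 to 67778, minus strand, 134 nt) had 0 counts after Dcp and 2, 2 and 9 after RppH. Every RppH library exceeded every Dcp library for each of the 3 loci. The lower bounds for RppH against untreated were 19.0, 8.84 and 5.75 for a, b and c (edgeR adjusted p = 0.000123, 0.00349 and 0.0102), and with the block only a passed (edgeR adjusted p = 0.00318, 0.0510 and 0.121). RppH exceeded Dcp by a ratio of 12.0 for a (95% counting interval 4.35 to 45.9), at least 7.42-fold for b and at least 4.82-fold for c (edgeR adjusted p = 0.0182, 0.0115 and 0.0234), and none of these passed with the block (edgeR adjusted p = 0.0793, 0.113 and 0.205). After Dcp the a locus did not pass (edgeR adjusted p = 0.175).

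The families ccm-MIR12463 and ccm-IIM-12 each hold 1 very abundant locus that the rule leaves out, beside much rarer ones. ccm-MIR12463b had 25, 313 and 1387 pooled counts in untreated, Dcp and RppH libraries. ccm-MIR12463a (scaffold 7, 1040602 to 1040740, minus strand, 139 nt) had 0 untreated and 0 Dcp counts and 2, 1 and 23 after RppH. ccm-MIR12463c (scaffold 9, 103175 to 103308, plus strand, 134 nt) had 0 untreated and 0 Dcp counts and 4, 2 and 5 after RppH. ccm-MIR12463d (scaffold 7, 1057146 to 1057281, minus strand, 136 nt) had 0 untreated counts, 0, 0 and 4 after Dcp and 2, 0 and 4 after RppH. Loci a and d peaked in RNA sample 3, and c was even across RNA samples. At least 11.5-fold, 4.86-fold and 2.65-fold higher after RppH, a, c and d passed (edgeR adjusted p = 0.00190, 0.0127 and 0.0377), but with the block none did (edgeR adjusted p = 0.0512, 0.127 and 0.240). RppH exceeded Dcp at least 9.65-fold for a and 4.08-fold for c (edgeR adjusted p = 0.00701 and 0.0274, or 0.113 and 0.206 with the block), while d gave a ratio of 1.67 (95% counting interval 0.396 to 8.04, edgeR adjusted p = 0.778).

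ccm-IIM-12b (scaffold 31, 136245 to 136401, plus strand, 157 nt) had 0 untreated counts, 1, 0 and 0 after Dcp and 26, 16 and 48 after RppH. Its mean after RppH was 1.01 ± 0.403 TPM (SD, n = 3), and every RppH library stood far above every other library. The rise after RppH was at least 39.8-fold (edgeR adjusted p = 9.51e-06). The ratio of RppH to Dcp was 100.2 (95% counting interval 17.5 to 4000) with an edgeR adjusted p of 0.000485, and it also passed with the block (0.0125). Its relative ccm-IIM-12a had 7, 312 and 783 pooled counts in untreated, Dcp and RppH libraries, so Dcp counts amounted to a larger part of RppH counts for a than for b, a difference that did not pass the family test (edgeR adjusted p = 0.136 for b). Only ccm-IIM-12b and ccm-MIR12487b kept a call for RppH above Dcp with the block.

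ccm-MIR12487b (scaffold 191, 250352 to 250481, plus strand, 130 nt) had 1, 0 and 0 untreated counts, 0 after Dcp and 37, 10 and 39 after RppH. Its RppH libraries did not overlap with the others, and their mean was 0.972 ± 0.503 TPM (SD, n = 3). The ratio of RppH to untreated rates was 114.1 (95% counting interval 19.9 to 4557; edgeR log2 fold change 6.29, SE 1.38, adjusted p = 4.69e-05). RppH exceeded Dcp at least 31.9-fold (edgeR adjusted p = 0.000262, or 0.00842 with the block). These folds cannot be ranked, since the first rests on 1 untreated count and the second on the floor of 3 counts. The other loci of the family, too low to test, had 1 Dcp and 8 RppH counts (ccm-MIR12487a, scaffold 177, 706927 to 707061) and 4 RppH counts in a single library (ccm-MIR12487c, scaffold 191, 256550 to 256676).

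Both loci of ccm-MIR12464 are 159 nt long and had 0 untreated counts. ccm-MIR12464b (scaffold 31, 129865 to 130023, plus strand) had 3, 4 and 0 counts after Dcp and 16, 6 and 23 after RppH. ccm-MIR12464a (scaffold 7, 1272924 to 1273082, plus strand) had 1, 0 and 0 after Dcp and 1, 5 and 19 after RppH. Locus b was the higher in every RppH library, though the means of 0.504 ± 0.235 and 0.269 ± 0.273 TPM overlapped within 1 SD (n = 3). They were at least 19.9-fold and 11.1-fold higher after RppH (edgeR adjusted p = 0.000108 for b and 0.00176 for a). RppH against Dcp gave ratios of 7.16 for b (95% counting interval 3.20 to 18.8) and 27.8 for a (4.56 to 1143), both called (edgeR adjusted p = 0.0315 and 0.0221) and both lost with the block (0.189 and 0.206). After Dcp neither passed (edgeR adjusted p = 0.0852 for b and 0.442 for a).

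Of the families left with a pair of tested loci, ccm-MIR12482 had 0 untreated counts at both loci. ccm-MIR12482a (scaffold 94, 850280 to 850430, plus strand, 151 nt) had 2, 0 and 0 counts after Dcp and 5, 1 and 19 after RppH. ccm-MIR12482b (scaffold 190a, 470803 to 470961, plus strand, 159 nt) had 2, 0 and 0 after Dcp and 2, 0 and 7 after RppH. In both, RNA sample 3 was the highest and RNA sample 2 the lowest after RppH. They passed after RppH (at least 11.1-fold, edgeR adjusted p = 0.00178, and at least 3.98-fold, edgeR adjusted p = 0.0199), and with the block a passed and b did not (0.0340 and 0.189). RppH exceeded Dcp for a (ratio 13.9, 95% counting interval 3.47 to 121.2, edgeR adjusted p = 0.0415, or 0.227 with the block) and b did not pass (5.01, 1.04 to 47.6, edgeR adjusted p = 0.309).

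The families ccm-IIM-10, ccm-IIM-34 and ccm-IIM-5 were low at each locus, and all 6 loci had 0 untreated counts. RppH libraries 1, 2 and 3 held 0, 7 and 9 counts of ccm-IIM-10a and 4, 5 and 0 of ccm-IIM-10b. They held 1, 2 and 8 of ccm-IIM-34a and 5, 0 and 7 of ccm-IIM-34b. They held 3, 3 and 10 of ccm-IIM-5a and 0, 1 and 4 of ccm-IIM-5b. Which locus of a pair led thus changed from library to library in ccm-IIM-10 and ccm-IIM-34, and a led in every library in ccm-IIM-5. Dcp libraries held 1 to 5 counts per locus in all. All 6 passed after RppH (at least 2.21-fold to 7.07-fold, edgeR adjusted p from 0.00553 to 0.0486) and 0 passed with the block (0.0616 to 0.244). None of the 6 passed after Dcp (edgeR adjusted p from 0.165 to 0.442) or between the enzymes (0.0564 to 0.975). For ccm-IIM-5b the ratio of RppH to Dcp was 1.11 with a counting interval of 0.256 to 4.84, too wide to tell the enzymes apart at this depth.

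Of the 10 families with 1 listed locus, 3 had loci among the most abundant. ccm-MIR12473a (scaffold 191, 522952 to 523101, plus strand, 150 nt) had 0 untreated counts, 8, 11 and 7 after Dcp and 18, 28 and 84 after RppH. ccm-MIR12494b (scaffold 177, 940439 to 940591, plus strand, 153 nt) had 0 untreated counts, 6, 6 and 1 after Dcp and 9, 15 and 63 after RppH. ccm-MIR12478a (scaffold 24, 1949839 to 1949987, minus strand, 149 nt) had 0 untreated counts, 4, 5 and 0 after Dcp and 23, 17 and 24 after RppH. In each of them the 3 groups did not overlap in TPM except for the Dcp library of RNA sample 3 of ccm-MIR12478a, which had 0 counts like the untreated libraries. ccm-MIR12478a varied least among the 10 most abundant loci after RppH (0.746 ± 0.0818 TPM, SD, n = 3). The lower bounds after RppH were 57.5-fold, 38.5-fold and 28.3-fold (edgeR adjusted p = 1.88e-06, 1.33e-05 and 2.90e-05 for ccm-MIR12473a, ccm-MIR12494b and ccm-MIR12478a). After Dcp they were 10.3-fold (edgeR adjusted p = 0.00263) and 5.16-fold (edgeR adjusted p = 0.0256, or 0.0877 with the block), and 3.57-fold for ccm-MIR12478a, which did not pass (edgeR adjusted p = 0.0589). RppH exceeded Dcp by ratios of 5.57 for ccm-MIR12473a, 7.45 for ccm-MIR12494b and 7.91 for ccm-MIR12478a (95% counting intervals 3.63 to 8.84, 4.14 to 14.6 and 3.92 to 18.1). All passed (edgeR adjusted p = 0.0282, 0.0224 and 0.0202) and all were lost with the block (0.188, 0.206 and 0.113). A locus named ccm-MIR12473, with no letter, is listed apart from ccm-MIR12473a and had 1 count in all.

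The remaining 43 of the 72 loci had low values, and 39 had under 10 counts over all libraries and were not tested. The other 4 had 0 untreated counts and all were called higher after RppH. RppH libraries 1, 2 and 3 held 1, 3 and 10 counts of ccm-IIM-1b, 3, 0 and 3 of ccm-IIM-96b, 4, 4 and 5 of ccm-MIR12474b and 3, 6 and 10 of ccm-MIR12476b, and edgeR adjusted p-values were 0.00826, 0.0362, 0.00903 and 0.00372, all lost with the block. Of these, ccm-MIR12474b and ccm-MIR12476b had 0 Dcp counts and were called higher after RppH than after Dcp (edgeR adjusted p = 0.0221 and 0.0118), also lost with the block. Of the rest some are given here, chosen after their values were seen. Of the neighbours ccm-MIR12489a and b on scaffold 240, a had 1, 8 and 0 counts after Dcp and 0 after RppH, and b had 0, 1 and 0 after Dcp and 0, 4 and 0 after RppH. Of ccm-MIR12495a and b on scaffold 165, a had 6 Dcp counts in RNA sample 2 and 0 after RppH, and b had 0 after Dcp and 3, 0 and 4 after RppH. In both pairs the locus seen mainly after Dcp and the locus seen mainly after RppH lie side by side, each with fewer than 10 counts, mostly from 1 library. ccm-IIM-86a had 6 counts in untreated library 1, 0 after Dcp and 3 in 1 RppH library, while ccm-IIM-86b and c had 3 and 4 RppH counts. ccm-MIR12480a was seen as 1 count in an untreated library, and its relative ccm-MIR12480c as 5 RppH counts. Differences between such loci were not detectable at this depth.

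Within families the counts were unequal. Of the 37 families, 9 had at least 2 listed loci and at least 30 RppH counts, with ccm-MIR12463b and ccm-IIM-12a counted in their families (both loci of ccm-MIR12490 are set aside by the rule, so it is not one of the 37). In these 9, the most abundant locus held 56.6% to 97.0% of the RppH counts of its family, with a median of 73.5%. Its share was at least 75% in 4 of them: ccm-MIR12463 (97.0%, from b), ccm-IIM-12 (89.7%, from a), ccm-MIR12487 (87.8%, from b) and ccm-MIR12497 (85.8%, from d). It exceeded the next locus in all 3 RppH libraries in 6 of the 9. The exceptions were ccm-MIR12465 and ccm-IIM-63, where the order of the upper loci turned in 1 library, and ccm-IIM-73, where a and b tied at 13 counts in RNA sample 3. Because the leading locus was chosen by these same counts, the shares are a description.

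**Figure D2:**
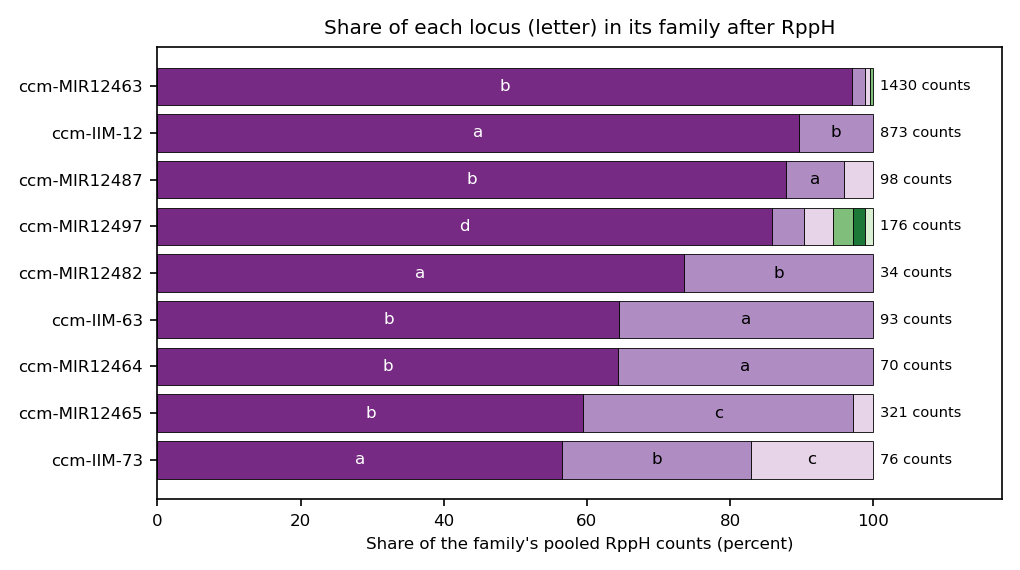
Share of each locus, marked by its letter, in the pooled RppH counts of its family, in percent, for the 9 of the 37 families with at least 2 listed loci and at least 30 RppH counts, with ccm-MIR12463b and ccm-IIM-12a included. The leading locus holds from 56.6% in ccm-IIM-73 to 97.0% in ccm-MIR12463.

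The enzyme responses were tested with edgeR over the 354 of 716 loci that had at least 10 counts over all 9 libraries, which include 33 of the 72 lettered loci. Of these 33, 30 had 0 untreated counts, so they passed the minimum through the treated libraries and a rise was largely built in. After RppH, 31 of 33 were called higher and 0 lower, against a background of 91.2% of all tested loci called higher. When the RNA sample entered as a block, 14 of 33 were called higher, against 57.3%. After Dcp, 6 of 33 were called higher, against 13.6%, and 5 of 33 with the block, against 8.47%. RppH exceeded Dcp for 19 of 33, against 61.0%, and for 2 of 33 with the block, against 18.1%. Here too, 7 of the 33 had 0 Dcp counts and passed the minimum through their RppH counts, so for them this difference was largely built in. Loci with few untreated and Dcp counts also reached the minimum only with their RppH counts, which favoured a difference. Examples are ccm-IIM-12b with 1 Dcp count and ccm-MIR12478a with 9. The share of the lettered loci called was close to the background in each comparison without the block, but that background mixes unlike classes. After Dcp, 9 of 32 microRNA loci with no letter, 16 of 18 snRNA loci and 13 of 267 tRNA genes were called higher. For RppH against Dcp, the same classes had 19 of 32, 0 of 18 and 177 of 267. No locus was lower in these comparisons, at an adjusted p or at an unadjusted p under 0.05 in edgeR, or in DESeq2, which called 18, 7 and 6 of the 33 higher.

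Of the 33, 6 loci were called higher after both enzymes: ccm-IIM-63b, ccm-MIR12465b, ccm-MIR12465c, ccm-MIR12473a, ccm-MIR12494b and ccm-MIR12497d. The background for this pattern was 13.6% of tested loci, or 8.19% with the block, where ccm-MIR12494b dropped out. All except ccm-IIM-63b were also called higher after RppH than after Dcp, a pattern with a background of 4.52%, and none of the 5 kept it with the block (background 1.13%). For 14 loci the call was higher after RppH than in both other groups with no call after Dcp, against a background of 54.5%, or 2 loci against 16.7% with the block. These were ccm-IIM-12b, ccm-IIM-63a, ccm-IIM-73a, b and c, ccm-MIR12463a and c, ccm-MIR12464a and b, ccm-MIR12474b, ccm-MIR12476b, ccm-MIR12478a, ccm-MIR12482a and ccm-MIR12487b. Of the 14, ccm-MIR12464b and ccm-MIR12478a had 7 and 9 Dcp counts against 0 untreated, so the lack of a call after Dcp does not show that Dcp had no effect. All 14 had fewer than 10 untreated and Dcp counts together, so each passed the count minimum only with its RppH counts. The pattern was thus in part built in, and largely so for those with 0 Dcp counts. The 6 loci with both calls all belong to the 10 most abundant, and a Dcp call was thus seen only where counts were high.

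**Figure D3:**
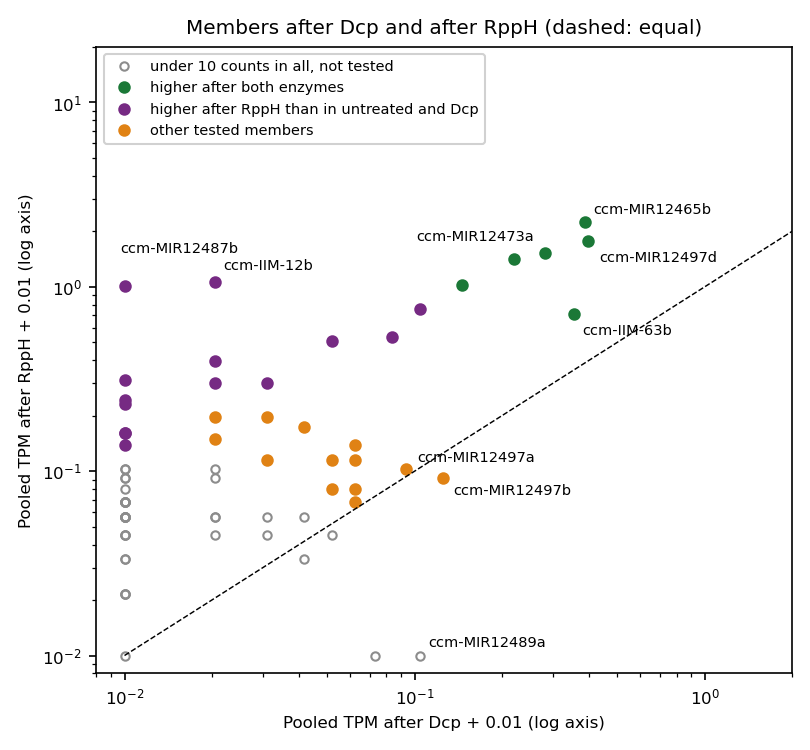
Pooled TPM + 0.01 after RppH (vertical) against Dcp (horizontal), both log axes, 1 point per locus for the 72 loci, coloured by the calls of the edgeR test, with open circles for the loci under 10 counts and a dashed line where both are equal. The 6 loci called after both enzymes lie at the upper right, and ccm-MIR12487b and ccm-IIM-12b reach similar RppH levels with 0 and 1 Dcp counts.

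Over the 33 tested loci the median fitted log2 fold change was 5.86 for RppH against untreated, 2.83 for Dcp against untreated and 2.75 for RppH against Dcp, and over all 354 loci it was 5.68, 1.98 and 3.34. With groups at 0 counts set to the floor and loci at or under the floor in both groups set to 0, the medians were 3.07, 0.00 and 2.46 for the 33 and 3.35, 0.00 and 2.82 for all. Levels here are set against the library total. Scaling on the tested loci themselves shifted the log2 fold changes by 3.16 with TMM and 3.55 with the median of ratios for RppH against untreated, by 0.92 and 1.13 for Dcp against untreated and by 2.24 and 2.42 for RppH against Dcp. With TMM, 8 of the 33 were higher and 2 lower after RppH (66 and 8 of all loci), and with the median of ratios 6 were higher and 2 lower (43 and 9 of all loci). The 2 lower loci were ccm-MIR12497a and b under both. For RppH against Dcp the split over all loci was 10 higher and 12 lower with TMM and 5 and 12 with the median of ratios, and 1 of the 33 was called under each, as higher.

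The calls leaned on single RNA samples. Without RNA sample 1, 0 of 33 were called after Dcp and 0 between the enzymes, and 20 were called after RppH. Leaving out RNA sample 2 gave 2, 7 and 28, and leaving out RNA sample 3 gave 6, 2 and 13. The 4 Dcp calls lost without RNA sample 2 were those of ccm-MIR12465c, ccm-MIR12473a, ccm-MIR12494b and ccm-MIR12497d. Of the 27 named loci called after RppH, 11 were called with each of 12 omissions (every library and every RNA sample in turn): the 10 most abundant and ccm-MIR12464b. Leaving out the RppH library of RNA sample 3 alone left 20 calls after RppH and 3 between the enzymes, and leaving out its Dcp library left 5 between the enzymes. Leaving out the Dcp library of RNA sample 2 left 7 and the RppH library of RNA sample 1 left 10.

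Whether loci of 1 family responded differently was tested by comparing each locus with the rest of its family (edgeR, diffSpliceDGE) over 304 loci in families with at least 2 tested loci, of which 25 are lettered loci of 11 families. In each of the 3 comparisons 0 loci departed from their family at an adjusted p under 0.05 (0.0%). Where every tested locus of a family had 0 untreated counts, a departure against untreated RNA could hardly be estimated. In ccm-MIR12465 after RppH, a, b and c all fell below their own family (log2 -5.19, SE 37.6, for a, -0.78 for b and -1.37 for c). For such families the lack of a call cannot tell whether loci respond alike. At an unadjusted p under 0.05 there were 23, 19 and 20 loci for RppH against untreated, Dcp against untreated and RppH against Dcp. Among them were 3, 1 and 3 of the 25. The nearest to a call was ccm-MIR12497d, whose fitted log2 change after RppH stood 5.54 above that of its family (SE 1.47, edgeR adjusted p = 0.0513, or 0.0685 with the block). ccm-MIR12497a and b stood 3.48 and 3.31 below it (edgeR adjusted p = 0.409 and 0.507). The departure of ccm-MIR12497d passed with TMM (edgeR adjusted p = 0.00959), with the median of ratios and without the Dcp library of RNA sample 3. For RppH against Dcp, the departures were 4.53 for ccm-IIM-12b (SE 1.29, edgeR adjusted p = 0.136), 3.98 for ccm-MIR12463a (edgeR adjusted p = 0.678) and 3.03 for ccm-IIM-63a (SE 1.46, edgeR adjusted p = 0.678), all relative to a family that includes a locus with many Dcp counts. Sequences of the loci were not compared here, and where loci of a family are alike, counts may have been divided between them.

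The transcripts were 106 nt (ccm-MIR12469a) to 183 nt (ccm-MIR12497a) long, with a median of 147 nt, and 57 of 72 measured 130 to 160 nt. Loci without a letter measured 109 to 210 nt with a median of 145 nt. Length and mean RppH level were weakly related over the 72 loci (Spearman's rho 0.137, Pearson's r 0.140 on log2(TPM + 0.1)), points that share libraries and, in part, families. In the 27 families with at least 2 listed loci the longest and shortest differed by 0 to 57 nt, with a median of 7 nt. The difference was at most 5 nt in 11 families and at least 20 nt in 7. Families of equal length were ccm-IIM-10 (147 nt), ccm-IIM-99 (139 nt) and ccm-MIR12464 (159 nt). The widest gap was in ccm-IIM-1, with 180 nt for a and 123 nt for b, followed by ccm-MIR12497 with 144 nt for e and 183 nt for a. In ccm-MIR12465 the 141 nt locus had 9 RppH counts and the loci of 145 nt had 191 and 121. Loci close in length could differ widely in level, as in ccm-MIR12463, where a (139 nt) had 26 RppH counts and b (136 nt) had 1387. The loci of ccm-MIR12464, equal in length, overlapped within 1 SD in mean RppH level.

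**Figure D4:**
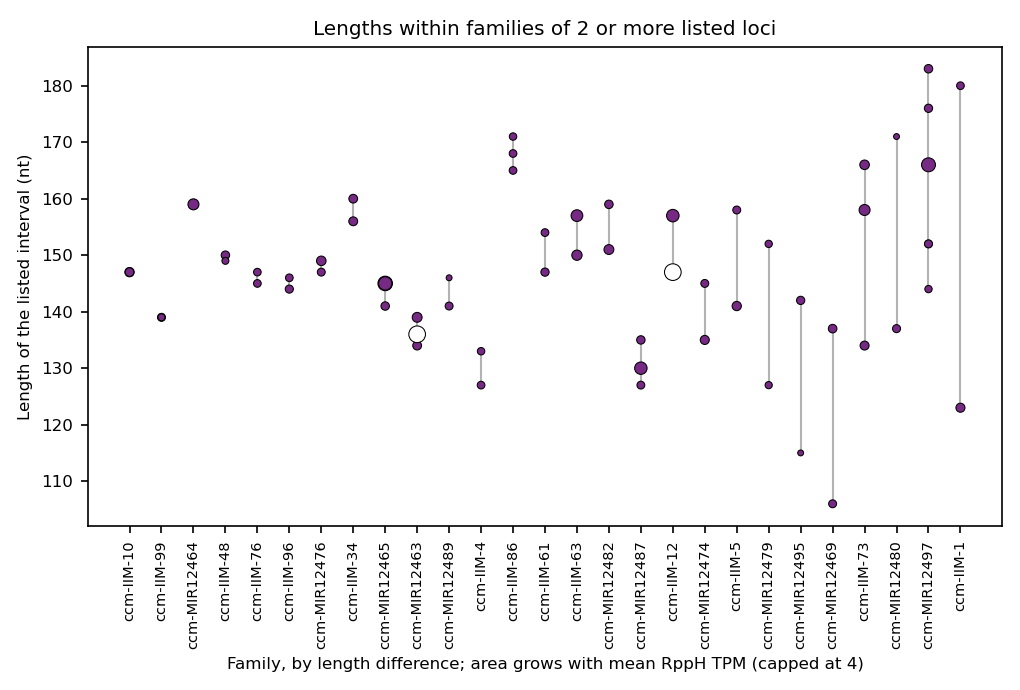
Length in nt of each listed locus (1 circle) in the families with at least 2 listed loci, ordered by the difference between longest and shortest, with larger circles for higher mean RppH TPM and open circles for loci set aside by the rule. Differences run from 0 nt in ccm-IIM-10 to 57 nt in ccm-IIM-1.

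Some loci lay close together on the assembly, whose scaffold names carry the prefix of Ccam0.32. Of the 72 loci, 25 (34.7%) had another listed microRNA locus within 10000 bases, and for 14 it was one of their own family. Of the 50 loci without a letter, 12 (24%) had such a neighbour. Within 1000 bases the numbers were 4 of 72 and 0 of 50, and within 100000 bases 38 (52.8%) and 16 (32%). Scaffolds with no other listed microRNA locus held 14 of the 72. Linking loci less than 10000 bases apart gave 14 clusters with at least 1 lettered locus, 6 of which held at least 2 loci of 1 family. Loci of 1 family shared a scaffold in 10 of the 27 families with at least 2 listed loci, and in 17 every locus had a scaffold of its own.

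In the family ccm-MIR12497, the loci a, b, c and d lay within 6899 bases of scaffold 13b on 1 strand, e lay 20346 bases beyond d and f on another scaffold. Along this stretch the RppH counts were 8, 7, 3, 151 and 2 from a to e, so the abundant locus lies between rare ones. The pairs ccm-MIR12489a and b (857 bases apart), ccm-IIM-96a and b (1756 bases), ccm-MIR12495a and b (3854 bases) and ccm-MIR12487b and c (6068 bases) also lay on the same strand. Pairs on opposite strands were ccm-MIR12480a and c (16016 bases), ccm-IIM-73b and c (23983 bases), ccm-IIM-76a and b (112141 bases) and ccm-IIM-61a and b (170289 bases), and in ccm-MIR12463 b lies on the strand opposite to a and d. The cluster with the most loci, on scaffold 7, held 5 within 22763 bases: ccm-MIR12463a, ccm-IIM-9, ccm-MIR12463b, ccm-MIR12463d and ccm-IIM-10a, with 26, 0, 1387, 6 and 16 RppH counts.

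**Figure D5:**
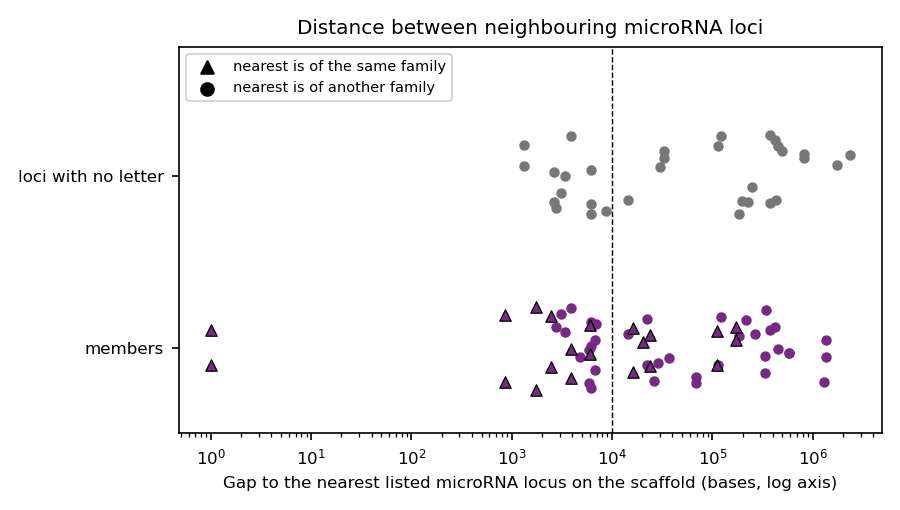
Gap in bases (log axis) from each locus to the nearest listed microRNA locus on its scaffold, for the 58 lettered loci and the 32 loci without a letter that share a scaffold, with triangles where the neighbour is of the same family and a dashed line at 10000 bases. Both loci of the overlapping pair ccm-MIR12497a and b are drawn at 1 base.

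Different families also shared scaffolds more than once. In 6 pairs of families, loci of both lay on each of the same 2 scaffolds, at widely differing distances. Whether this number exceeds that of randomly placed loci was not tested. ccm-IIM-12a follows ccm-MIR12464a after 6919 bases on scaffold 7, and ccm-IIM-12b follows ccm-MIR12464b after 6221 bases on scaffold 31, on the plus strand in both places. The ccm-IIM-12 locus had more RppH counts than its neighbour in both places, 783 against 25 on scaffold 7 and 90 against 45 on scaffold 31. Between the scaffolds, ccm-IIM-12a exceeded ccm-IIM-12b, while the mean RppH levels of ccm-MIR12464a and b overlapped within 1 SD. ccm-IIM-10b and ccm-MIR12463c lie 6696 bases apart on opposite strands of scaffold 9, while on scaffold 7 ccm-IIM-10a lies 5936 bases from ccm-MIR12463d and 22477 bases from ccm-MIR12463a, both on its own strand, and 12507 bases from ccm-MIR12463b on the opposite strand. ccm-IIM-99 and ccm-MIR12482 lie 22544 bases apart on scaffold 94 and 43408 bases apart on scaffold 190a, in both cases on opposite strands. ccm-IIM-48 and ccm-MIR12469 do so at 69026 bases on scaffold 108 and 39414 bases on scaffold 308. The 2 pairs left lie far apart on each scaffold. Gaps were 1357559 and 1321547 bases for ccm-IIM-1 with ccm-IIM-4, and 333187 to 369668 bases for ccm-MIR12474 with ccm-MIR12497.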

How the data were processed

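The libraries, 9 in all and 3 per group, hold full-length short RNAs. The deposited table gives raw counts per interval and library and TPM by the authors, per the file headers, and within each library TPM equalled the count divided by 1 constant (largest relative deviation 3.11e-15), from which the library total was recovered. The sources used here state neither what that total counts nor where reads matching several loci were placed. Tools named in the submitters' processing notes are cutadapt, Bowtie2, SAMtools and bedtools, in versions not given there. Coordinates are counted from 1 on the scaffolds of the table. The supplied gene table is of another assembly and was not used here.

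Pre-tRNA intervals were summed per gene, which gave 716 loci. The quasi-likelihood test of edgeR 4.0.16 in R 4.3.3 was run on the 354 loci with at least 10 counts, with library totals as offsets, all 9 libraries in 1 fit, two-sided tests and Benjamini-Hochberg adjustment at 0.05 over all tested loci. SEs were back-calculated from the log2 fold change and the F statistic. Departure of a locus from its family was tested with edgeR's diffSpliceDGE. Ratios carry exact 95% intervals of pooled counts. Tested on simulated counts for RppH against untreated, the fit recovered 100 of 100 loci changed 16-fold and 59 of 100 changed 4-fold. The family step recovered 32 of 54 changed 16-fold, and a separate simulation in which no locus changed gave 0 calls among 304 loci. Calls among unchanged relatives of a changed locus were not counted. Simulated untreated libraries were given each locus's mean rate over all 9 libraries, with 1 fixed spread and no RNA sample effect. Of the 33 tested lettered loci, 30 had 0 untreated counts, so these recoveries check the code and do not give the power for such loci.

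The labels give the RNA sample as the library number, so the numbers pair the libraries. The residual correlation was weak (same number -0.0241 to 0.0662, different numbers -0.0601 to 0.0392). The block fit stands beside a result where it changes the call.

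Alternatives were TMM and median-of-ratios scaling, no count minimum or 30 counts, DESeq2 1.42.0, the RNA sample as a block, and each RNA sample or library left out. The 29 loci named by rule were tested lettered loci of families with at least 2 of them, the 10 highest after RppH, and those called after Dcp or departing from their family. Others were named after their values were seen. The loci, lists and tests were chosen with earlier results of these data known.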

Additional observations from a re-analysis of the deposited data

How the results depend on the processing

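With the RNA sample as a block, the loci called for RppH against untreated fell from 323 to 203 and the lettered loci from 31 to 14, those for Dcp against untreated from 48 to 30 over all loci, and those for RppH against Dcp from 216 to 64 and from 19 to 2. The block fit changed no call of a tested lettered locus other than those given with their values or named as lost. TMM gave 74 loci and 10 lettered loci for RppH against untreated and 22 and 1 for RppH against Dcp, and the median of ratios gave 52 and 8, then 17 and 1, and 30 loci for Dcp against untreated. A minimum of 30 counts gave 174 and 12 for RppH against untreated and 129 and 11 for RppH against Dcp. DESeq2 gave 18 lettered loci for RppH against untreated, and 102 loci and 6 lettered loci for RppH against Dcp. Lettered loci that departed from their family after RppH numbered 0, but 1 with TMM and 2 with the median of ratios. Neighbours within 10000 bases numbered 25, within 1000 bases 4 and within 100000 bases 38. For these counts the cause was not tested, except that a higher minimum tests fewer loci.

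Leaving out 1 RNA sample or library in turn gave 196 to 324 loci and 13 to 31 lettered loci for RppH against untreated, 6 to 58 and 0 to 8 for Dcp against untreated, 0 to 224 and 0 to 19 for RppH against Dcp, and 0 to 1 departing lettered loci after RppH. The tally of settings for the 29 named loci took in comparisons called in the main edgeR fit, and ccm-MIR12497a and b against untreated RNA. Of its results, 636 kept direction and side of the threshold, 289 lost the call, 4 gained one and 15 changed sign. Other comparisons of named loci were left out of the tally, though some gained a call. An example is ccm-MIR12478a after Dcp without the Dcp library of RNA sample 3 (edgeR adjusted p = 0.0219). On the log2 scale, leaving out 1 RNA sample or library gave -2.48 to 0.52 for ccm-MIR12497a and -0.51 to 0.80 for ccm-MIR12497b in RppH against untreated, and -1.20 to 0.49 for ccm-MIR12497a in Dcp against untreated. For Dcp, ccm-MIR12497b was -0.28 with TMM and -0.41 with the median of ratios. RppH against Dcp was -0.01 for ccm-MIR12465b and -0.07 for ccm-MIR12473a with the median of ratios. Depth limits every locus here, since 1 count was worth up to 0.0400 TPM.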
